A study of Saccharomyces cerevisiae with 11 samples.

Results

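The genes described here encode the subunits of 3 translation initiation factors of the budding yeast Saccharomyces cerevisiae: eIF2 (SUI2, SUI3, GCD11), eIF3 (RPG1, PRT1, NIP1, TIF34, TIF35, HCR1) and eIF5 (TIF5). These 10 genes were chosen by name, as genes of these factors. Of the 10, 9 had a transcript leader length in at least 1 of the 11 libraries and are among the 4551 open reading frames (ORFs) with a value in the series, and PRT1 had none. Over all protein-coding genes of the R64 annotation, 75.6% had a length in some library. The transcript leader runs from the cap of an mRNA to its start codon, and it was mapped by TL-seq, which sequences ends that carried a cap. Sigma 1278b, MAT a and marked ura3 leu2 trp1 his3, gave 1 TL-seq library with tobacco acid pyrophosphatase (TAP), the enzyme that opens the cap for ligation, and 1 control library without it. TATL-seq, the same method on polysome gradient fractions, gave 7 libraries, fractions 1 to 7, from cells labelled BY4742, which carry MAT α with his3∆1, leu2∆0, lys2∆0 and ura3∆0. The last group was TL-seq with TAP of S288C, the reference strain, in 2 biological replicates whose genotype the labels leave at the strain name. All cultures were grown in rich medium with glucose to mid-log phase. Each file gives 1 length in nucleotides (nt) per gene and no reads, so depth is unknown and a missing length cannot be read as a missing mRNA.

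eIF2 carries the initiator methionyl-tRNA, with GTP, to the small ribosomal subunit. eIF3 is the large assembly that binds the same subunit, helps load mRNA and keeps the scanning complex together. eIF5 speeds GTP hydrolysis by eIF2, a step in the choice of the start codon. Phosphorylation of eIF2α lowers the supply of active eIF2 in starved cells. The leader is the stretch of mRNA that this machinery scans, so its length in these genes describes the mRNAs from which the machinery itself is made.

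Labels were checked by mating-type genes, since a-specific genes are off in α cells. Sigma with TAP had lengths for 3 of 6 a-specific and 0 of 4 α-specific genes, and the S288C replicates for 0 of 6 and 3 of 4. The gradient libraries labelled BY4742 had both kinds, with lengths for 4 of 6 a-specific and 2 of 4 α-specific genes. The a-specific STE6 and BAR1 and the α-specific MF(ALPHA)1 and SAG1 had no length in any fraction. The α-factor receptor gene STE2, which is a-specific, was present in all 7 fractions, and AGA2, MFA2 and MFA1 were present in 5, 3 and 2 of them, while the α-specific MF(ALPHA)2 was present in 6 and STE3 in 1. These calls went against a purely MAT α source, and their part in the results on fractions was not tested; the comparison of Sigma with S288C uses no fraction. Of the marker genes, LEU2, URA3 and LYS2 had no length in any library, HIS3 had one in both S288C replicates, and TRP1 had one in 2 fractions and both S288C replicates but not in Sigma. Per the labels, a Genome Analyzer II was used for 9 libraries and a HiSeq 2000 for the S288C pair. In TL-seq a difference of strain is thus also a difference of instrument, and perhaps of processing, and these cannot be told apart.

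**Figure D1:**
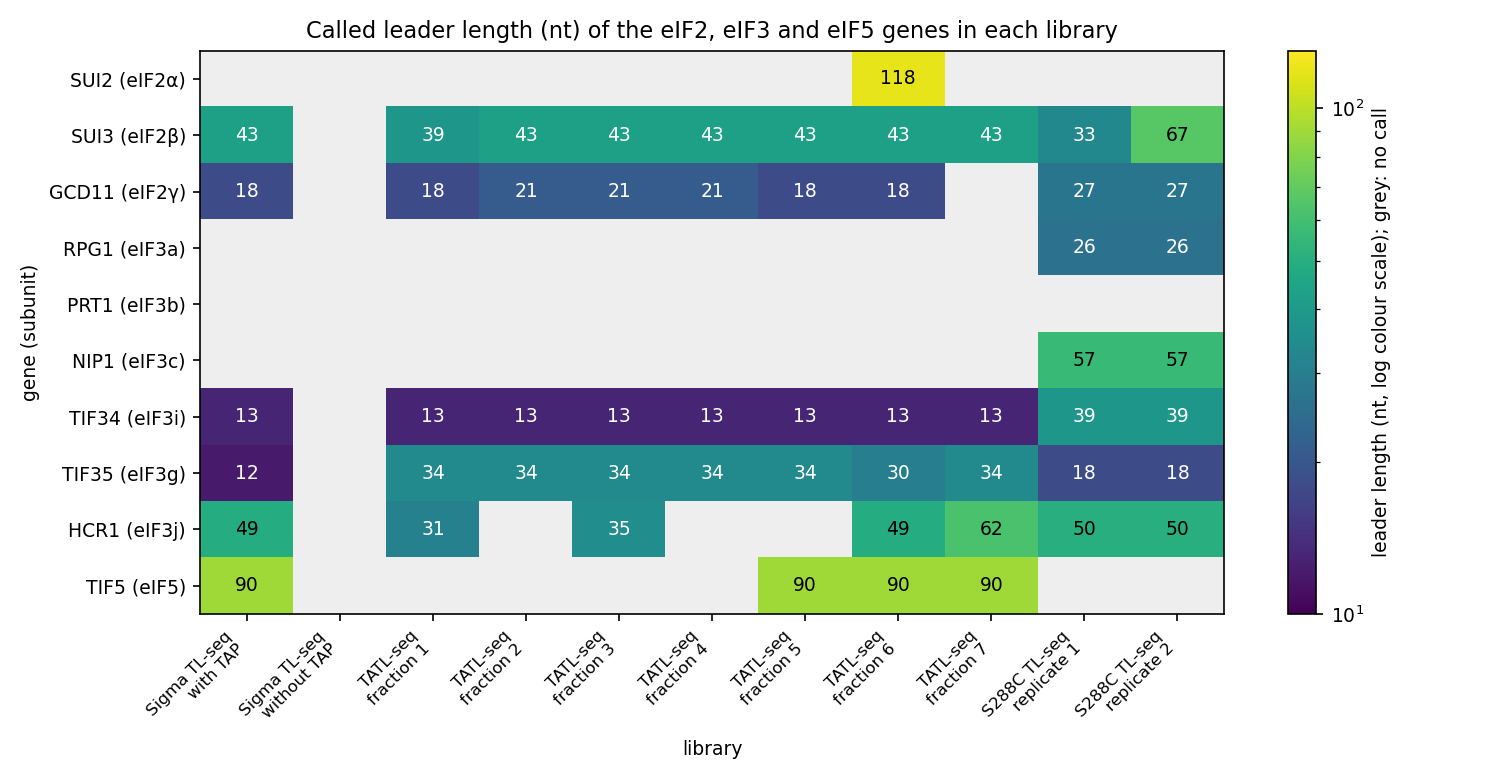
Called leader length in nt (number and colour, log colour scale) of each gene (rows) in each of the 11 libraries (columns); grey cells have no call. TIF34 has 13 nt in Sigma with TAP and all 7 fractions but 39 nt in both S288C replicates, TIF35 has 30 or 34 nt in the fractions but 12 and 18 nt in TL-seq, and no gene has a call without TAP.

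Among the eIF2 genes, the leader of SUI3, for eIF2β, was 43 nt in Sigma and in 6 of 7 fractions, while the S288C replicates gave values on either side of it. SUI3 (YPL237W, chromosome XVI, 100496 to 101353 in R64) had 43 nt in Sigma, 39 nt in fraction 1, 43 nt in each of fractions 2 to 7, and 33 and 67 nt in the S288C replicates (mean 50 nt ± 24.0, SD, n = 2). The replicates thus spanned all other libraries and were the only pair among the 7 genes called in both that lay at least 10 nt apart. Such a gap was seen in 12.9% of the 3144 ORFs called in both replicates. The Sigma and gradient value of 43 nt was 10 nt longer than replicate 1 and 24 nt shorter than replicate 2, so no direction can be given for SUI3 beyond the replicate error.

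GCD11, for eIF2γ, the subunit that binds GTP and the initiator tRNA, had a short leader throughout. GCD11 (YER025W, chromosome V, 205251 to 206834) had 18 nt in Sigma, 18, 21, 21, 21, 18 and 18 nt in fractions 1 to 6, no call in fraction 7, and 27 nt in both S288C replicates. All values from Sigma and the fractions lay below both S288C values by 6 to 9 nt. This is under the 10 nt used here to count a difference, and the share of ORFs with such an order was not computed. Over all ORFs compared, the median of Sigma minus S288C was −4.5 nt and that of TATL-seq minus S288C −5 nt, so GCD11, at −9 and −7.5 nt, stood a few nt from the middle of both distributions. More negative differences were found in 28.5% and 38.1% of the ORFs.

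SUI2, for eIF2α, the subunit phosphorylated by the kinase Gcn2, had a single call. SUI2 (YJR007W, chromosome X, 451020 to 451934) had 118 nt in fraction 6 and no length in the other 10 libraries, S288C included. A call in 1 library only occurred for 10.8% of all 4551 ORFs. This was the longest leader of the 10 genes, and 85.1% of the 3635 ORFs called in any fraction had a shorter TATL-seq median, but nothing in these files repeats it.

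The large eIF3 subunits were seen only in S288C or not at all. RPG1 (YBR079C, chromosome II, 395383 to 398277), for the scaffold subunit eIF3a, had 26 nt in both S288C replicates. NIP1 (YMR309C, chromosome XIII, 892988 to 895426), for eIF3c, a subunit that contacts eIF5 and eIF1, had 57 nt in both. Neither had a length in Sigma or in any fraction, a pattern found in 17.3% of the 3144 ORFs called in both S288C replicates. PRT1 (YOR361C, chromosome XV, 1015361 to 1017652), for eIF3b, the subunit with an RNA recognition motif that binds eIF3i and eIF3g, had no length in any library. No leader of these 3 genes could be compared between strains or along the gradient.

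The small eIF3 subunits held all differences of 10 nt or more that were counted below. TIF34, for eIF3i, a protein of WD repeats, had the same short leader in all libraries of the Genome Analyzer II that called it. TIF34 (YMR146C, chromosome XIII, 557481 to 558524) had 13 nt in Sigma, 13 nt in each of the 7 fractions and 39 nt in both S288C replicates. The groups did not overlap, and Sigma and the fractions lay 26 nt below S288C, where the S288C replicates did not differ at all (SD 0 nt, n = 2). Of the 959 ORFs called in Sigma and all 7 fractions, 26.2% had a single length throughout, and TIF34 was the 1 of 3 eIF genes so called that did. Of the 1210 ORFs called in both S288C replicates, Sigma and at least 5 fractions, 15.9% had both S288C lengths at least 10 nt above all the others, as TIF34 did. This pattern was described after the values of TIF34 had been seen. The fractions share the sequencer with Sigma, and their labelled strain derives from S288C, which the mating-type calls put in doubt. The parts of sequencer, method, strain and processing in this difference cannot be told apart.

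TIF35, for eIF3g, an RNA-binding subunit that partners eIF3i, was longer in the gradient than in either TL-seq strain. TIF35 (YDR429C, chromosome IV, 1324477 to 1325301) had 12 nt in Sigma, 34 nt in 6 fractions, 30 nt in fraction 6, and 18 nt in both S288C replicates. The fractions did not overlap with TL-seq, and their lowest value was 12 nt above the S288C replicates and 18 nt above Sigma. A gradient leader at least 10 nt above all 3 TL-seq lengths in every fraction with a call was found in 9 of the same 1210 ORFs (0.744%), a pattern that was described after the values of TIF35 had been seen. The difference between Sigma and TATL-seq was −22 nt. These libraries share the sequencer but differ in method and labelled strain, which cannot be told apart. Of the 1789 ORFs compared between Sigma and TATL-seq, 3.52% had a more negative difference.

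HCR1, for eIF3j, a loosely bound subunit also linked to ribosome recycling, differed among the fractions. HCR1 (YLR192C, chromosome XII, 538792 to 539589) had 49 nt in Sigma, 31, 35, 49 and 62 nt in fractions 1, 3, 6 and 7, no call in fractions 2, 4 and 5, and 50 nt in both S288C replicates. Sigma lay 1 nt from S288C, whereas the fractions lay on both sides of it, with a range of 31 nt. Of the 319 ORFs called in exactly 4 fractions, 40.8% had a range of 10 nt or more. Of those 130 ORFs, 1.54% were longer in each later fraction called, HCR1 being 1 of 2, but this pattern was taken from the values of HCR1 after they had been seen. Each fraction is 1 library, so no replicate error is known, and the labels do not say which end of the gradient was heavy.

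TIF5, for eIF5, had a single length wherever it was called. TIF5 (YPR041W, chromosome XVI, 648704 to 649921) had 90 nt in Sigma, 90 nt in fractions 5, 6 and 7, and no call in fractions 1 to 4 or in either S288C replicate. All 4 values were equal, in 2 strains as labelled. A length in Sigma and in a fraction but in neither S288C replicate was found for 9.78% of 1789 ORFs, and 8.06% of the 3635 ORFs called in a fraction were called in fractions 5 to 7 only. In Sigma 84.9% of the 1883 ORFs called had a shorter leader.

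The comparison of Sigma with S288C is between strains and also between instruments. The genome build for S288C was not given, so processing may differ as well, and these cannot be told apart. An ORF was counted where the S288C replicates were at most 10 nt apart and Sigma was longer than both, or shorter than both, by at least 10 nt. Among the 4 genes compared this held for TIF34, which was shorter in Sigma, and none was longer, while 27.6% of the 1324 ORFs compared were shorter in Sigma and 13.2% longer. The share of 1 in 4 is close to that over all ORFs. TIF35 differed by −6 nt and HCR1 by −1 nt. The median difference was −7.5 nt over the 4 genes and −4.5 nt over all ORFs. SUI3 was not compared because its S288C replicates disagreed. With 1 Sigma library no test was possible.

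**Figure D2:**
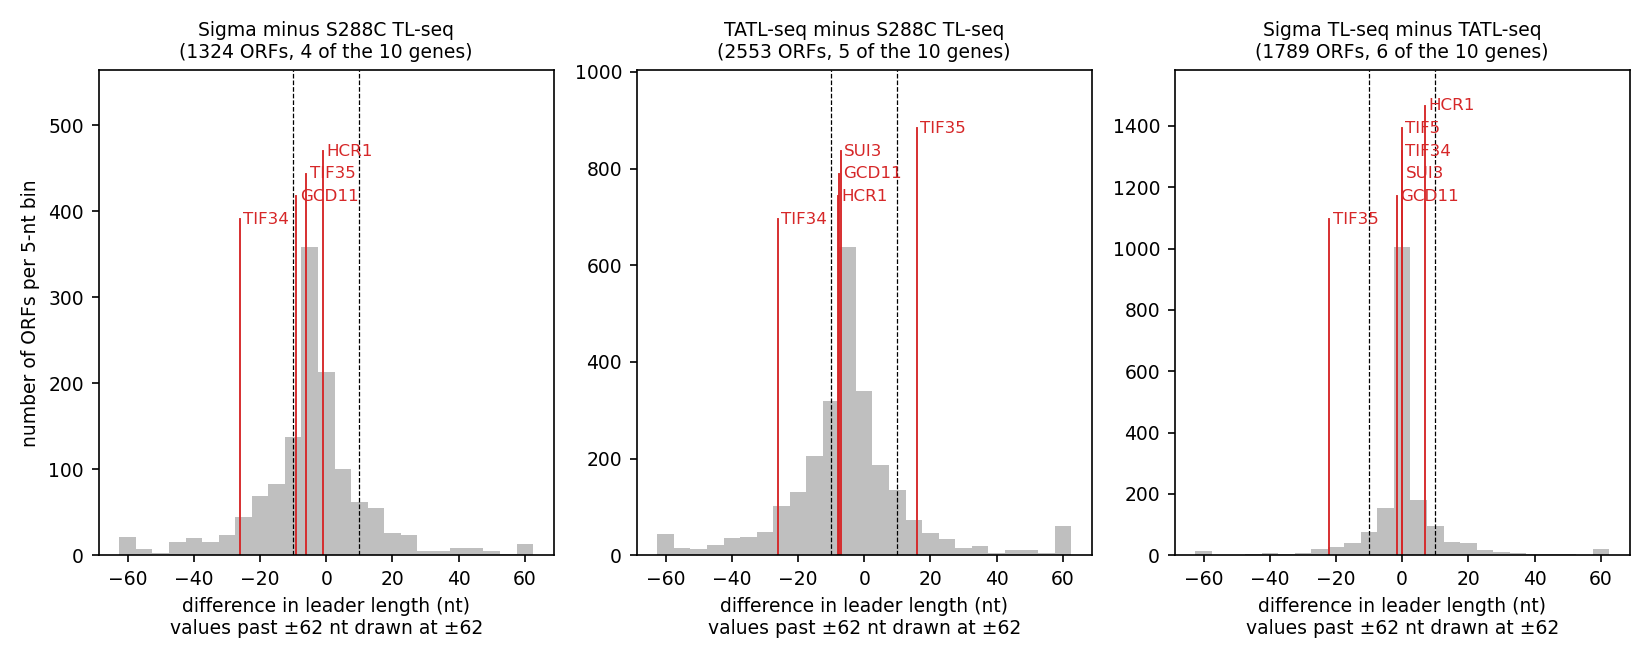
Histograms of the difference in leader length (nt, x axis) over all ORFs compared, as ORFs per 5-nt bin (y axis), with the eIF genes as red lines whose heights only separate the labels; dashed lines stand at ±10 nt. TIF34 lies at −26 nt in both comparisons with S288C, and TIF35 lies at +16 nt for TATL-seq minus S288C and −22 nt for Sigma minus TATL-seq.

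TATL-seq was set against S288C TL-seq with the median over the fractions called and the mean of the S288C replicates. A difference of at least 10 nt between these was counted, with no limit on the gap between replicates, so the shares follow a looser rule than those for Sigma against S288C. Of 5 genes compared, TIF35 was longer in TATL-seq (34 nt against 18 nt, a difference of 16 nt) and TIF34 shorter (13 nt against 39 nt, −26 nt). Over all 2553 ORFs 13.5% were longer and 33.3% shorter by at least 10 nt. GCD11 differed by −7.5 nt, and the median over all ORFs was −5 nt. HCR1 differed by −8 nt on the median over its unequal fractions, by −1 nt without fraction 1 and by 12 nt with its longest gradient length. SUI3 differed by −7 nt from the mean of its unequal replicates, but by 10 nt from replicate 1 alone and −24 nt from replicate 2 alone, so neither gene has a stable direction. These libraries differ in method, sequencer and labelled strain at once, and perhaps in processing, and these cannot be told apart.

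Sigma and TATL-seq were both sequenced on the Genome Analyzer II, and their median difference over 1789 ORFs was 0 nt. They differ in method and labelled strain, which cannot be told apart. Sigma and the TATL-seq median were equal for SUI3, TIF34 and TIF5, and GCD11 differed by −1.5 nt. HCR1 was 7 nt longer in Sigma, within its range over fractions. TIF35, at 12 nt in Sigma and 34 nt in TATL-seq, was the only 1 of 6 to reach 10 nt, where 9.39% of the ORFs were shorter in Sigma and 10.5% longer.

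The control without TAP holds ends that do not need a cap removed. None of the 10 genes had a length there, while 6 had one with TAP. Over all ORFs called in Sigma with TAP, 9.08% were also called without it, so 0 of 6 is near the share over all ORFs.

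Along the gradient, 4 genes were called in at least 5 fractions, and their ranges were 0 nt for TIF34, 3 nt for GCD11 and 4 nt for SUI3 and TIF35. None reached 10 nt, while 30.9% of the 2062 ORFs so called did. The exceptions to a constant length were single fractions for SUI3 (39 nt in fraction 1) and TIF35 (30 nt in fraction 6), and a change between 18 and 21 nt for GCD11.

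Taken as a group, the 7 genes called in both S288C replicates had a median leader of 39 nt (quartiles 26.5 and 50 nt), against 41.5 nt (24.5 and 70 nt) over all 3144 ORFs so called. Their order, from short to long, was TIF35 (18 nt), RPG1 (26 nt), GCD11 (27 nt), TIF34 (39 nt), HCR1 and SUI3 (50 nt each) and NIP1 (57 nt). SUI3, with its SD of 24.0 nt, is not distinct from its neighbours, and the other 6 had the same length in both replicates, as 76.2% of all ORFs did. The group's medians were 30.5 nt in Sigma (n = 6) and 42 nt in TATL-seq (n = 7), against 33 and 39 nt over all ORFs. The order was not the same in Sigma, where TIF35 (12 nt), TIF34 (13 nt) and GCD11 (18 nt) were followed by SUI3 (43 nt), HCR1 (49 nt) and TIF5 (90 nt). In S288C 13.9% of ORFs had a shorter leader than TIF35 and 33.1% a longer one than NIP1.

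**Figure D3:**
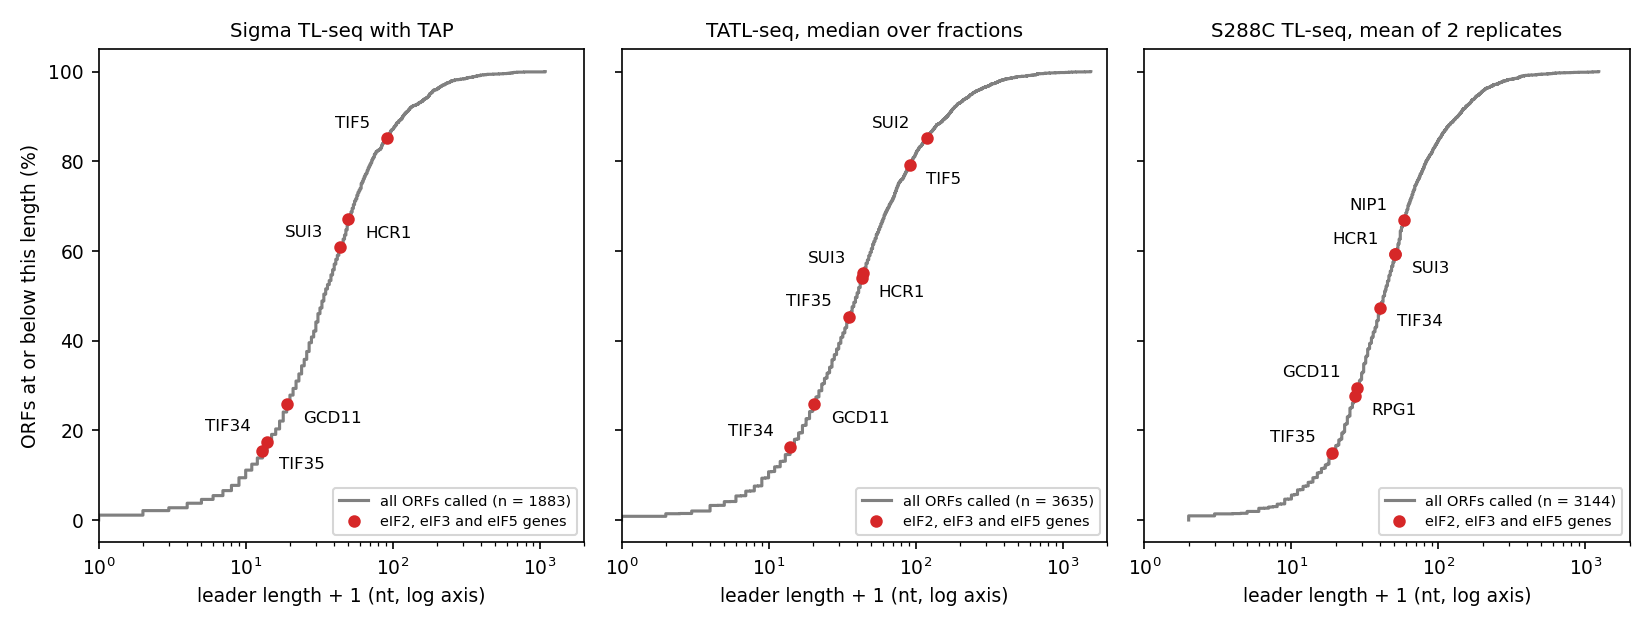
Cumulative share of ORFs (y axis, %) by leader length plus 1 (x axis, nt, log axis) in Sigma with TAP, in TATL-seq as the median over fractions and in S288C as the mean of 2 replicates; red points are the eIF genes. TIF34 sits at 13 nt in the first 2 panels and at 39 nt in S288C, and SUI2 (118 nt) and TIF5 (90 nt) sit high on the curves where they were called.

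The longest ORFs of the 10 were RPG1 (2895 nt), NIP1 (2439 nt) and PRT1 (2292 nt), the 3 without a length in Sigma or the fractions, and the other 7, all under 2000 nt, had one. Calls also differed with ORF length over the whole series. Of the ORFs called in both S288C replicates, 69.0% of those of 2000 nt or more were also called in Sigma or a fraction, against 86.0% of shorter ones. Of all protein-coding genes of 2000 nt or more, 69.5% were called in some library. The bound of 2000 nt was set after these values were seen. The number of libraries with a call was 10 for SUI3, TIF34 and TIF35, 9 for GCD11, 7 for HCR1, 4 for TIF5, 2 for RPG1 and NIP1 and 1 for SUI2, and its median over the 9 genes called was 7, against 6 over all ORFs called.

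**Figure D4:**
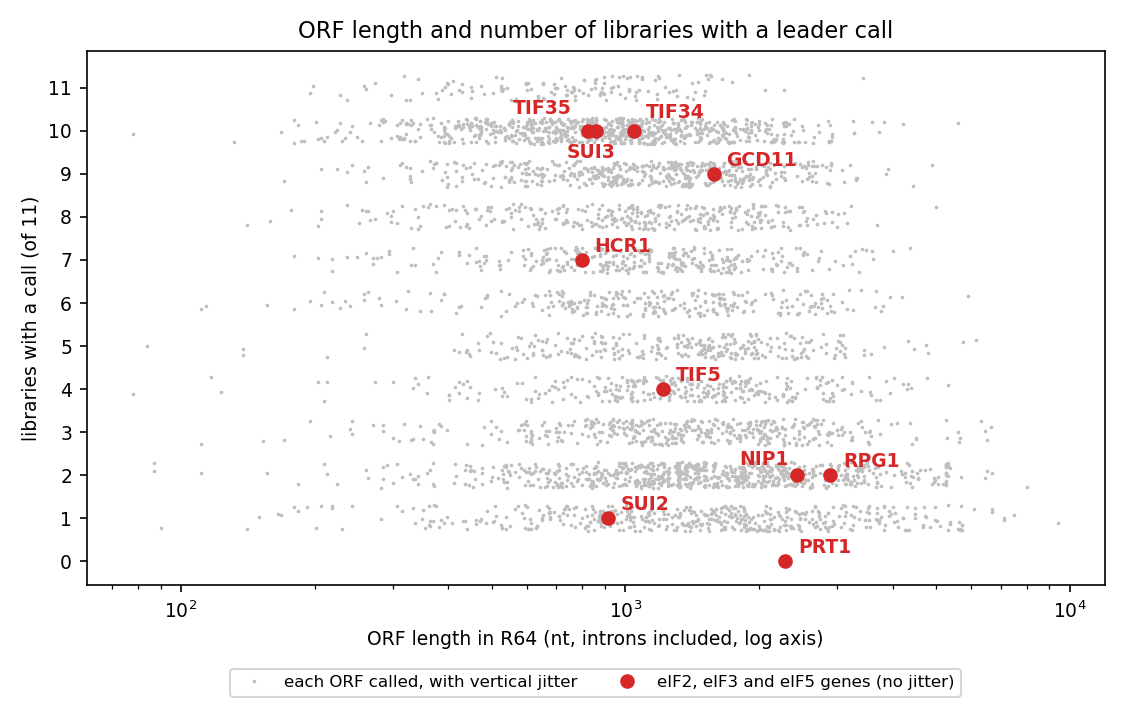
Number of libraries with a leader call (y axis, of 11) against ORF length in R64 (x axis, nt, log axis) for every ORF called (grey, jittered vertically) and the eIF genes (red). RPG1, NIP1 and PRT1 lie at the right with 2, 2 and 0 libraries, while SUI3, TIF34 and TIF35, all short, reach 10.

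For 9 of the 10 genes the next annotated gene upstream lay on the same strand, as it did for 48.3% of all protein-coding genes with a neighbour of known strand. That space was shortest for TIF35 (199 nt behind CYM1) and PRT1 (227 nt behind PRE10). TIF34 was the exception, with a divergent neighbour, LDO45, at 674 nt. The longest call took 33.3% of the space for SUI2 (354 nt behind POL31), 27.4% for TIF5 (328 nt behind TIP41) and 5.79% for TIF34, so every called 5′ end lay between the ORF and its upstream neighbour. GCD11 lay 287 nt behind YAT2, NIP1 289 nt behind UPA2, RPG1 336 nt behind SEC18, SUI3 409 nt behind YAR1 and HCR1 419 nt behind UPS1.

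Genes whose lengths moved most like those of the 3 genes with the widest range over fractions were found by the mean absolute difference after each ORF's own median was subtracted. For SUI3, over its 10 libraries, these were CUR1 (1.70 nt), PRS2 (1.70 nt) and AIM2 (1.80 nt) among 872 ORFs. Because they were picked for likeness, they shared with SUI3 nearly constant lengths in Sigma with TAP and the fractions, and unequal S288C replicates. Ties were broken by name, which left out an ORF as alike as AIM2 and, for TIF35 below, another as alike as EMA19. CUR1 had 51 nt in Sigma with TAP and all 7 fractions, 40 nt in Sigma without TAP, and 40 and 63 nt in S288C. For TIF35, over 10 libraries, they were PRE1 (2.60 nt), ZRC1 (2.80 nt) and EMA19 (2.90 nt). PRE1 had 76 nt in Sigma with TAP, 82 nt in all fractions and 63 nt in both S288C replicates. ZRC1 had 33 nt in Sigma and all fractions and 18 nt in both S288C replicates. EMA19 had 7 nt in Sigma, 20 nt in all fractions and 12 nt in S288C. Of these, only EMA19 was shorter in Sigma than in S288C, as TIF35 was. For HCR1, over 7 libraries and among 910 ORFs, they were SSL2 (2.43 nt), ORT1 (3.86 nt) and RPL23A (4.00 nt). SSL2 had 33 nt in Sigma, 15, 33, 17, 17, 33, 33 and 33 nt in fractions 1 to 7, and 35 nt in both S288C replicates.

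Partner factors were listed with the 10 genes: the 5 subunits of eIF2B, which reloads eIF2 with GTP, 5 factors of start-codon choice, recycling and eIF2 assembly, and 4 genes of the eIF2 kinase pathway. All 14 had a length in some library, against 75.6% of protein-coding genes. Those called in both S288C replicates had a median of 33.5 nt (n = 10), against 41.5 nt over all ORFs so called. Against S288C, 2 of 5 were shorter in Sigma, where 27.6% of all ORFs were, and none was longer, where 13.2% were. In TATL-seq 4 of 7 were shorter than in S288C, where 33.3% of all ORFs were, and none was longer, where 13.5% were. Against TATL-seq, 2 of 5 were shorter in Sigma, where 9.39% of all ORFs were, and none was longer, where 10.5% were.

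SUI1 and TIF11, for eIF1 and eIF1A, which bind the small ribosomal subunit and promote scanning, had different lengths in Sigma, the fractions and S288C. SUI1 had 2 nt in Sigma with TAP and 8 nt without it, 15 nt in all 7 fractions and 34 nt in both S288C replicates. TIF11 had 3 nt in Sigma, 14 nt in all fractions and 26 nt in both S288C replicates. The Sigma lengths of both lie close to the start codon, where the lower quartile over all ORFs called in Sigma was 18 nt. SUI1 was also called without TAP, as were 9.08% of the ORFs called with it. Whether its Sigma end carried a cap was not tested. Both genes were shortest in Sigma with TAP and longest in S288C, whereas TIF35 was longest in the fractions. How many of all ORFs had this order was not counted. Sigma minus S288C was more negative in 6.19% of ORFs than for SUI1 and in 10.8% than for TIF11. For TATL-seq minus S288C these shares were 15.6% and 26.0%. GCD1, for eIF2Bγ, had 19 nt in fractions 1 to 4, 30 nt in fractions 5 to 7, and 35 and 52 nt in S288C. RLI1, for a recycling ATPase that binds eIF3, had 62 nt in fractions 3 and 4, 54 nt in fractions 5 to 7 and 73 nt in both S288C replicates. GCN4, the transcription factor whose translation is raised when eIF2α is phosphorylated and whose leader holds upstream reading frames, had 572 and 567 nt in S288C and no other length.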

How the data were processed

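Per the labels' protocols, poly(A) RNA was fragmented, stripped of free phosphates, treated with TAP or mock-treated, and given an adaptor at its 5′ ends, which should mark caps. Other values, here leader lengths in nt, are as the authors deposited them, 1 per gene and library with no header. Reads were aligned with Bowtie, per the submitters' processing notes, to sacCer3 for Sigma and the fractions. The rule that sets a length was not given in the sources used here, nor were the aligner's version and the build for S288C. The RefSeq gene table of R64 held all 4551 ORF names and gave symbols, positions and ORF lengths, and 57 snoRNA and tRNA names were left out.

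Lengths were compared with Python 3.11.15 and pandas 2.3.3, by rules run on all ORFs and tested on made-up lengths. S288C used the mean of its replicates and TATL-seq the median over fractions called. A difference or range counted from 10 nt, and ranges needed 5 fractions. The members, lists and rules were chosen with earlier results of these data known. All 10 members were named. Partner genes were named where they differed by 10 nt in a comparison, and SUI1, TIF11 and GCN4 in any case. So were the 3 most alike ORFs for each of the 3 members of widest range over at least 2 fractions. A share of ORFs gives no test, and no p-value was computed.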

Additional observations from a re-analysis of the deposited data

How the results depend on the processing

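With a minimum of 5 nt, the genes that differed numbered 3 of 4 for Sigma against S288C, 5 of 5 for TATL-seq against S288C and 2 of 6 for Sigma against TATL-seq, in place of 1, 2 and 1. The medians over all ORFs were −4.5, −5 and 0 nt in these comparisons. No share over all ORFs was computed under the alternative settings of this paragraph, so its counts cannot be read as particular to these genes. With 20 nt, TATL-seq against S288C left 1. With either S288C replicate left out, 2 of 5 differed between Sigma and S288C, since SUI3 then entered, longer without replicate 2 and shorter without replicate 1, and TATL-seq against S288C gave 3 under both. With the shortest length over fractions, 4 of 5 differed from S288C. With genes called in at least 3 fractions, 1 of 6, HCR1, had a range of 10 nt or more, in place of 0 of 4, and leaving out each fraction in turn left it at 0. The group's median of 39 nt was 33 to 39 nt with a replicate left out and 30.5 nt in Sigma, where 6 genes were called. The sign of the counted differences of TIF34 and TIF35 held under each alternative run. Against S288C, the TATL-seq difference of SUI3 went to 10 nt without replicate 2, in place of −7 nt, and that of HCR1 to 12 nt with the longest length, in place of −8 nt, and the Sigma difference of HCR1 to 3.5 nt after the shift below, in place of −1 nt. Subtracting the median difference over all ORFs moved TIF34 to −21.5 nt (Sigma) and −21 nt (TATL-seq) against S288C and TIF35 to 21 nt (TATL-seq). No paired analysis was possible because no result comes from a test and only S288C has replicates. Upstream ATG codons in leaders were not analysed here. No read depth is known for any length.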

Other observations

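Some partner genes that the comparisons could not use were called in a few fractions with unequal lengths, and they were picked here after their values were seen. GCN3, for the regulatory subunit eIF2Bα, had 58, 77 and 106 nt in fractions 1, 3 and 7. CDC123, for an assembly factor of eIF2, had 40, 46 and 56 nt in fractions 5, 6 and 7. GCN20, for a partner of Gcn1 in the activation of Gcn2, had 12 nt in fraction 3 and 37 nt in fraction 4. GCN2, for the eIF2α kinase, had 120 nt in fraction 1 only, and GCN1 had 44 nt in both S288C replicates only. GCD6, for the catalytic subunit eIF2Bε, had 40 and 17 nt in the S288C replicates and no other length. Unlike these genes, GCD7 and GCD2, for eIF2Bβ and eIF2Bδ, were used in the comparisons. Their lengths were 32 and 26 nt in Sigma and 33 nt each in both S288C replicates. Their medians over all 7 fractions equalled Sigma, at 32 and 26 nt, but neither was constant along the gradient. GCD7 ranged over 19 nt, from 28 nt (fraction 1) to 47 nt (fraction 4). For GCD2 the range was 13 nt, set by fraction 3 alone (39 nt, all others 26 nt).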
